A study of Mus musculus with 121 samples.

Results

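The unfolded protein and integrated stress response was examined as a set of 37 genes in liver and gonadal adipose tissue of mice of 3 genotypes at the PEP locus, wild type (WT), heterozygote (HET) and knockout (KO). The members were found by matching gene symbols, through the reference annotation, to the Ensembl identifiers of the deposited count tables, and all 37 of 37 were present among the 25759 genes of each table. They comprised 14 chaperones and folding factors of the endoplasmic reticulum (ER), 6 genes of ER-associated degradation, 4 genes of stress sensing (Xbp1, Atf6, Ern1 and Eif2ak3), the transcription factor Atf4, and 12 of its known targets. The mice were C57BL/6 in every group and received their diet freely from 8 weeks of age for 18 weeks. Liver was taken from WT (n = 5), HET (n = 8) and KO (n = 5) mice on standard chow with 10% of calories from lipid, and from WT (n = 8), HET (n = 11) and KO (n = 9) mice on HFD 45%, a high fat diet. Liver was also taken from WT (n = 5), HET (n = 4) and KO (n = 1) mice on a diet named Control and from WT (n = 6), HET (n = 5) and KO (n = 8) mice on a diet named Alios. Gonadal fat was analysed from WT (n = 4), HET (n = 8) and KO (n = 5) mice on chow and from WT (n = 8), HET (n = 11) and KO (n = 9) mice on HFD 45%. Poly(A)-selected RNA was sequenced from each piece of tissue, so every value is that of a whole tissue, in which fewer cells of a type and less RNA per cell cannot be told apart. The labels do not give the sex of the mice or how the KO allele was made.

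Proteins that are secreted or placed in membranes fold in the ER, helped by chaperones such as BiP (encoded by Hspa5), and liver cells, which export most plasma proteins, and antibody-making plasma cells depend heavily on this machinery. When unfolded protein accumulates, the membrane sensors IRE1 (Ern1), ATF6 and PERK (Eif2ak3) are activated. IRE1 splices the mRNA of Xbp1, ATF6 is cut to release a transcription factor, and both raise chaperones and degradation genes, whereas PERK phosphorylates eIF2 and favours translation of ATF4. ATF4 is also reached from other kinases that sense amino acid shortage, viral RNA or haem deficiency, and this wider route, the integrated stress response, induces genes of amino acid synthesis and uptake. The labels name the locus PEP, taken here as peptidase D (prolidase, Pepd), which releases proline or hydroxyproline from dipeptides. The files count genes and not transcript forms, so splicing of Xbp1 and translation of Atf4 were not measured.

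The chaperone and ATF4 branches are read from different short DNA elements, and the promoters of the members carry them in separate groups. The sequences below come from RefSeq promoters on GRCm38.p6, which span 250 bases before to 50 bases after the annotated start of each gene, 300 bases in all. Of the 37 members 33 had a promoter in that set. The ER stress response element was searched as CCAAT, 9 bases of any kind, then CCACG, on both strands. It lay in the promoters of 7 of 12 ER chaperones (58.3%), namely Hspa5, Hsp90b1, Calr, Canx, Pdia6, Dnajc3 and Creld2, and in 2 of 5 degradation genes (40%), Derl3 and Syvn1. None of the 12 ATF4 targets held it, and 37 of 26994 genes (0.137%) did. Its variant, ATTGG followed by 1 base and CCACG, lay in 2 members, Herpud1 and Dnajb11, and in 12 of all genes (0.0445%). The 8-base element TGACGTGG, read by XBP1, lay in no member and in 193 of all genes (0.715%). The element read by ATF4 with a C/EBP partner, TGATGNAA, lay in 5 of 12 ATF4 targets (41.7%), namely Atf3, Chac1, Trib3, Slc7a11 and Asns, in Herpud1, and in 0 of 12 ER chaperones, against 1218 of all genes (4.51%). A match is a run of letters and not a measured binding site. Of the members called between KO and WT further on, Hyou1 had no promoter in the set. Edem1, Xbp1, Psat1 and Sesn2, also called there, held none of these elements. The stretches below belong to members with a match that are described further on. They are printed 5′ to 3′ on the strand of the gene, with coordinates on GRCm38 and the matched element in capitals. An element on the other strand reads CGTGG to ATTGG or TTGCATCA.
Hspa5, chr2:34772005-34772063, plus strand: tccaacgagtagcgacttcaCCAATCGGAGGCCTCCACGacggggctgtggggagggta
Hsp90b1, chr10:86705513-86705676, minus strand: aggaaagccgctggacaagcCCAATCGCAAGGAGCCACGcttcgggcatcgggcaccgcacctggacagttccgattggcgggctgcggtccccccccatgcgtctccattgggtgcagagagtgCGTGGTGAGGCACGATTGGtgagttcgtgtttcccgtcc
Creld2, chr15:88819500-88819558, plus strand: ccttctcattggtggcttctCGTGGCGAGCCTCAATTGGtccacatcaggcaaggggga
Derl3, chr10:75893222-75893280, plus strand: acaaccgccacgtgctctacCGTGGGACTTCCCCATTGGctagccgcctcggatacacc
Herpud1, chr8:94386297-94386407, plus strand: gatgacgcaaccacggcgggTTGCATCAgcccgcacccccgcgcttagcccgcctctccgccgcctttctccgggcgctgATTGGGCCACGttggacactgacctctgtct
Asns, chr6:7693210-7693252, minus strand: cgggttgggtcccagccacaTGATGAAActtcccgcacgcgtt
Atf3, chr1:191183416-191183463, minus strand: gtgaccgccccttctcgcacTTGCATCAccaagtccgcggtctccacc
Slc7a11, chr3:50443633-50443699, minus strand: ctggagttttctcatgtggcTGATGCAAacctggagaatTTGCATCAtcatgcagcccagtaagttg
Hspa5 and Hsp90b1 carried the chaperone element and nothing of the ATF4 kind, and Hsp90b1 carried it at 2 places. Creld2 and Derl3, described below for fat, carried it on the opposite strand. Herpud1 was the member that held an element of each kind, and in Slc7a11 the ATF4 element occurred at 2 places.

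A few facts about the libraries touch every result. Library totals ran from 42692 to 8854246 counts in liver (median 3191160, 75 libraries) and from 4236655 to 6699887 in fat (median 5981802, 45 libraries). The lowest liver total was that of Alios KO library 8, and the next lowest was 1027087. Pepd averaged 42.7 to 53.1 CPM (counts scaled to library size) over the liver WT groups, 21.6 to 25.1 over the HET groups and 1.65 to 2.26 over the KO groups. In fat it averaged 83.8 and 103 CPM in WT on the 2 diets against 17.8 and 25.2 CPM in KO. A single mouse labelled HET on HFD had Pepd at the KO level in both tissues, 1.22 CPM in liver HET library 8 and 21.8 CPM in gonadal HET library 3. Albumin (median 80100 CPM in liver on chow and HFD, 72.6 CPM in fat) and Adipoq (2480 CPM in fat, 0 in liver) matched the labelled tissues. Gonadal HFD WT library 6, though, held hepatocyte markers summing to 49800 CPM, against a median of 1240 CPM over the fat libraries. In fat on chow, HET library 2, KO library 1 and WT library 2 carried epididymis markers summing to 13700, 13800 and 15700 CPM, against at most 86.3 CPM in the other chow libraries. The labels do not say that samples come from separate mice, but 76 mouse numbers stand behind the 120 libraries, 44 of them in both tissues.

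Over all libraries of a tissue, diets and genotypes pooled, chaperones had the highest levels of the set. Levels are given here as mean CPM per kilobase of exon, which allows genes to be compared, and the 3 tables they come from were normalized separately. In liver on chow and HFD the highest was Calr, the calcium-binding lectin chaperone calreticulin, at 284, followed by Hsp90b1 (the ER form of HSP90) at 247, Hspa5 at 193, Herpud1 (a scaffold of the degradation channel) at 166 and Pdia3 (a disulfide isomerase for glycoproteins) at 164. In fat Calr stood at 285, Hspa5 at 179, Hsp90b1 at 166 and Pdia3 at 160, whereas Herpud1 stood at 38.5. Among the ATF4 targets of amino acid synthesis Asns, Psat1 and Phgdh were low in liver and readily counted in fat. Shmt2 went the other way, at 69.4 in liver on chow and HFD and 18 in fat. Asns, which makes asparagine, stood at 3.25 in liver on chow and HFD and 20.2 in fat. Psat1 and Phgdh, enzymes of serine synthesis, stood at 0.305 and 0.0644 in liver against 49.1 and 35.3 in fat. Atf3, a stress-induced transcription factor, stood at 1.4 in liver and 45.3 in fat. The levels of Asns and Atf3 differ between the diets, as given further on. Slc7a11, the cystine carrier, was low in both, at 0.0105 and 0.37. After the filter on low counts 34 of 37 members could be tested in liver on chow and HFD (not Psat1, Phgdh or Slc7a11), 35 in liver on Control and Alios (not Phgdh or Slc7a11) and all 37 in fat.

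In liver on HFD, KO mice had higher expression of 3 of 34 tested members (8.82%) than WT mice. These were Hyou1, a chaperone that exchanges nucleotide on BiP, Hspa5, the BiP gene itself, and Edem1, which selects misfolded glycoproteins for degradation. Hyou1 (chr9:44379490-44392369) was 1.7-fold higher, Hspa5 (chr2:34771970-34777547) 1.46-fold and Edem1 (chr6:108828641-108859356) 1.34-fold. None of the 34 tested members fell. Over all genes tested 190 of 11064 passed (1.72%), 0.569% as higher and 1.15% as lower.

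Per mouse, Hspa5 in KO liver on HFD had a lowest, median and highest level of 894, 1070 and 1490 CPM, against 532.6, 740 and 920 CPM in WT and 451, 784 and 1090 CPM in HET. The means were 1080 ± 179 (SD, n = 9) in KO, 743 ± 149 (SD, n = 8) in WT and 787 ± 194 (SD, n = 11) in HET. The KO and WT ranges overlapped by 1 KO library, the other 8 of 9 lying above every WT library. Hyou1 had a lowest, median and highest level of 142, 250 and 308 CPM in KO, 96.9, 138 and 212 CPM in WT and 76.5, 179 and 241 CPM in HET. Here too 8 of 9 KO libraries exceeded the highest WT library, and the lowest KO library lay near the WT median. Edem1 ran at 199, 227 and 283 CPM in KO against 140, 168 and 211 CPM in WT, with 6 of 9 KO libraries above every WT library.

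**Figure D1:**
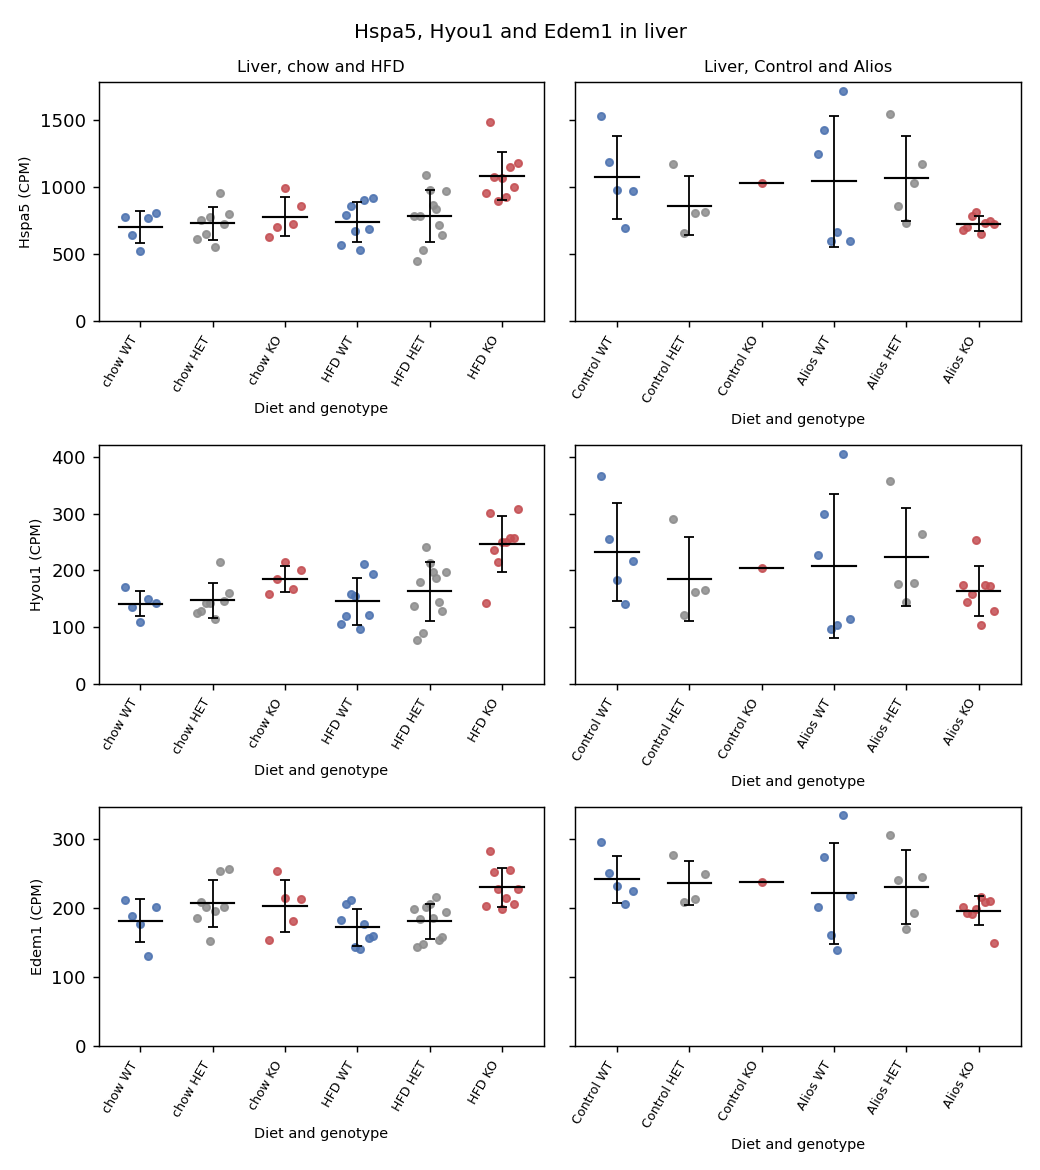
Levels of Hspa5, Hyou1 and Edem1 in liver, in CPM on the y axis, for WT, HET and KO mice on each diet; points are libraries, bars are means and error bars are SD. On HFD the KO points of Hspa5 sit between 894 and 1490 CPM against 532.6 to 920 CPM in WT, while on Alios the KO points sit between 652 and 814 CPM inside the WT range of 595.6 to 1720 CPM.

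The log2 differences were 0.77 ± 0.17 (SE) for Hyou1, 0.55 ± 0.14 for Hspa5 and 0.42 ± 0.11 for Edem1, with edgeR adjusted p (quasi-likelihood test, Benjamini-Hochberg over all genes) of 0.0158, 0.0342 and 0.0378. Within the mice numbered under 450 and above 450, the difference was 0.78 and 0.79 for Hyou1, 0.51 and 0.59 for Hspa5 and 0.36 and 0.48 for Edem1. Hyou1 lost its call without WT library 5 (log2 difference 0.70, adjusted p 0.0667). Hspa5 lost its call in a fit of only the compared groups (adjusted p 0.0544) and without KO library 2 or 3 or WT library 1, 4, 5 or 7, with adjusted p from 0.0556 to 0.11 and log2 differences from 0.48 to 0.55. Edem1 lost it with no filter on low counts (adjusted p 0.0552), in a fit of only the compared groups (0.0621), without libraries with markers of other tissues (0.0526) and without KO library 2, 3, 4 or 7 or WT library 4, 5, 7 or 8, with adjusted p from 0.0625 to 0.118.

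The members that did not pass leaned the same way on the ER side and not on the ATF4 side. All 14 ER chaperones had a positive KO minus WT difference, with a median log2 value of 0.43, as did all 6 degradation genes (median 0.34) and all 4 sensing genes (median 0.14). The median of all genes tested was −0.002. Creld2, a cysteine-rich ER protein, had a log2 difference of 0.90 (adjusted p 0.0529), with levels of 31, 47.3 and 115 CPM in KO against 16.7, 27.2 and 41 CPM in WT. Pdia4, a disulfide isomerase (0.45, adjusted p 0.0595), Hsp90b1 (0.42, adjusted p 0.077) and Dnajb11, a co-chaperone of BiP (0.40, adjusted p 0.0884), also missed the threshold. Atf4 itself had a log2 difference of −0.01 ± 0.12 (adjusted p 0.982), with levels of 81.9, 117 and 130 CPM in KO and 90.8, 119 and 133 CPM in WT. Of the 9 tested ATF4 targets 4 had a positive difference, with a median of −0.04. Atf3 had −0.60, Trib3, a pseudokinase that feeds back on ATF4, had −0.46, and Asns had 1.02 ± 0.77 (adjusted p 0.543), none of which passed. In all, 19 of 34 members (55.9%) had an unadjusted p under 0.05, against 15.8% of all genes. DESeq2 called 6 members and 298 genes.

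A score per mouse, the mean z-score over the 14 chaperones, was 0.838 ± 0.793 (SD, n = 9) in KO on HFD, with libraries from 0.0158 to 2.75, and −0.374 ± 0.518 (SD, n = 8) in WT, from −1.22 to 0.257. HET stood at −0.122 ± 0.778. The same score over the 9 tested ATF4 targets was 0.184 ± 0.408 in KO and 0.0225 ± 0.552 in WT. The chaperone difference of 1.21 became 1.17 with the median z-score and 1.19 without Pdia4, and the ATF4 target difference of 0.161 became 0.313 and, without Mthfd2, 0.0699. KO library 2 was the highest of its group, with Hspa5 at 1490 CPM, Hsp90b1 at 2260 CPM, Creld2 at 115 CPM and a chaperone score of 2.75.

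**Figure D2:**
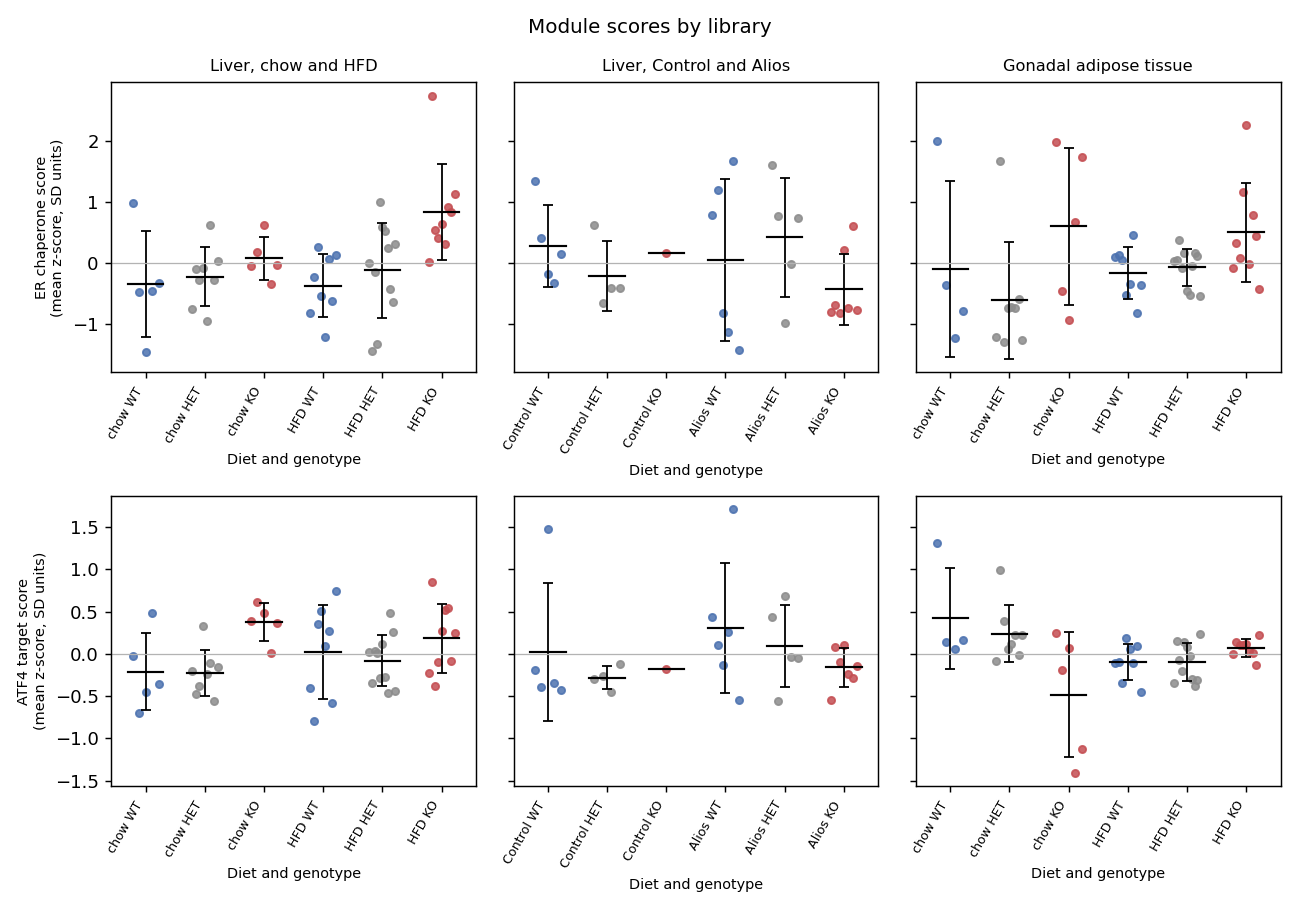
Mean z-score per library over the 14 ER chaperones and over the tested ATF4 targets (y axis, SD units within each table), by tissue, diet and genotype; points are libraries, bars are means and error bars are SD. The chaperone score on HFD in liver is 0.838 in KO and −0.374 in WT, whereas the ATF4 target scores of the same mice are 0.184 and 0.0225.

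Markers of other cells differed between these groups as well. The summed plasma cell markers ran from 427 to 1430 CPM in KO and from 335 to 582 CPM in WT, with the highest values in KO library 7 (1430 CPM) and KO library 2 (995 CPM). Macrophage markers ran from 485 to 885 CPM in KO and from 385 to 885 CPM in WT. Skeletal muscle markers ran from 0 to 79.7 CPM in KO and from 0.512 to 2.26 CPM in WT, with all 9 tested markers positive and 0 called. Pancreas markers reached 97.2 CPM in KO library 3. Hepatocyte markers averaged 116000 CPM in KO and 118000 CPM in WT. The part of these cells in the chaperone difference was not tested.

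Against HET mice on the same diet, 4 members were higher in KO liver, and 264 of 11064 genes passed (2.39%, with 1.06% higher and 1.33% lower). This comparison shares the KO libraries with the one against WT. Hyou1 had a log2 difference of 0.60 ± 0.16 (adjusted p 0.027) and Hspa5 of 0.46 ± 0.13 (adjusted p 0.0429). Manf, a secreted ER stress protein, rose by 0.62 ± 0.18 (adjusted p 0.0466), with levels of 68.7, 92.6 and 139 CPM in KO against 34.6, 64.6 and 86.8 CPM in HET. Mthfd2, the mitochondrial folate enzyme among the ATF4 targets, was 1.94-fold higher (log2 0.96 ± 0.27, adjusted p 0.0457), at 1.52, 3.03 and 6.09 CPM in KO against 0.402, 1.49 and 3.84 CPM in HET. The ranges of Manf and of Mthfd2 overlapped between KO and HET. Manf shares 146 exon bases with Dcaf1 on the other strand, and the strand setting of the counting is not given in the sources used here. Without HET library 8, the mouse with Pepd at the KO level, Manf (adjusted p 0.0504) and Mthfd2 (0.052) lost their calls, and Hspa5 and Hyou1 kept them. With no filter on low counts the calls of Hspa5, Manf and Mthfd2 were lost (0.0595 to 0.0626). Without KO library 2 all 4 calls were lost, with adjusted p of 0.0613 for Hyou1, 0.108 for Hspa5, 0.106 for Manf and 0.0881 for Mthfd2. Hyou1 also lost its call without KO library 9 (adjusted p 0.0535), Hspa5 without KO library 3, 5, 7, 8 or 9 (0.0524 to 0.0746), Manf without 5, 7, 8 or 9 (0.0526 to 0.0856), and Mthfd2 without 5, 6, 7 or 8 (0.0542 to 0.125).

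On chow, no member passed between KO and WT liver, where 3.4% of the 11064 genes did. In this comparison edgeR gave 4 members (11.8%) and 20.2% of all genes with an unadjusted p under 0.05, and DESeq2 called 0. Hspa5 stood at 624.8, 701, 992, 722 and 858 CPM in the KO libraries and at 776, 645, 523.5, 771 and 810 CPM in the WT libraries, and 2 of 5 KO libraries exceeded the highest WT library. Hyou1 stood at 159, 184, 214, 167 and 200 CPM in KO and at 171, 135, 109, 149 and 142 CPM in WT, with 3 of 5 KO libraries above every WT library. Mthfd2 stood at 2.94, 6.13, 4.1, 1.99 and 3.88 CPM in KO and at 1.75, 0.488, 2.07, 1.69 and 1.01 CPM in WT, a log2 difference of 1.28 ± 0.42 that missed the threshold (adjusted p 0.0739). Asns had a log2 difference of 1.75 ± 0.95 (adjusted p 0.295). The tested ATF4 targets had 7 of 9 positive differences and a median of 0.56, and the chaperones 10 of 14 and a median of 0.12. Against chow HET, where 1496 genes passed (13.5%, with 7.91% higher and 5.61% lower), Mthfd2 rose by 1.29 ± 0.36 (adjusted p 0.0159) and Sel1l, the adaptor of the degradation ubiquitin ligase, fell by 0.27 ± 0.09 (adjusted p 0.0473). Mthfd2 lost its call without KO library 2 (adjusted p 0.111), and Sel1l without KO library 1, 2, 3 or 5 (0.0852 to 0.108). The chow KO livers were also those with summed macrophage markers of 491.3, 2190, 1480, 628 and 1750 CPM against a median of 414 and at most 707 CPM in WT, and hepatocyte markers of 86500 ± 32400 CPM (SD, n = 5) against 116000 CPM. The part of cell makeup in the chow values was not tested.

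The KO effect was not shown to differ between HFD and chow for any member. In the interaction test 16 of 11064 genes passed (0.145%) and no member, and DESeq2 called 0 members. At an unadjusted p under 0.05 there were 6 members (17.6%), a share like that of all genes (18.1%). All 14 chaperones had a larger KO minus WT difference on HFD than on chow, with a median of 0.35. Sel1l came closest among the members named, at 0.39 ± 0.13 (adjusted p 0.113).

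On the Alios diet most members, of the ER side and of the ATF4 side, leaned lower in KO than in WT, and no member passed. Of 35 tested members 5 had a positive KO minus WT difference, with a median of −0.29. A positive difference held for 1 of 14 chaperones (median −0.26), 0 of 6 degradation genes (median −0.42) and 2 of 10 ATF4 targets (median −0.50). Of the sensing genes Xbp1 (0.04) and Ern1 (0.48) were positive, Ern1 with the same value as on HFD (0.48), and Atf6 (−0.13) and Eif2ak3 were negative. Over all genes 26 of 11595 passed (0.224%), 11 members (31.4%) and 14.5% of all genes had an unadjusted p under 0.05, and DESeq2 called 1 member. Hspa5 had a lowest, median and highest level of 652, 727 and 814 CPM in KO (729 ± 52.5, SD, n = 8) and stood at 1250, 1430, 595.6, 665, 1720 and 596.6 CPM in the WT libraries. The KO libraries lay close together inside the WT range, with 2 WT libraries below all of them, 1 among them and 3 far above. The log2 difference of Hspa5 was −0.51 ± 0.22 (adjusted p 0.27). Eif2ak3, which encodes the sensor PERK, came closest to the threshold at −0.82 ± 0.21 (adjusted p 0.0707), with 12.4, 18.5 and 24.6 CPM in KO against 18.2, 33.6 and 41.7 CPM in WT. It shares 485 exon bases with Gm43292 on the other strand. Hyou1 ran from 103 to 253 CPM in KO and from 96.9 to 405 CPM in WT. Creld2 ran from 21.3 to 51.6 CPM in KO and from 17 to 125 CPM in WT. Its lowest KO value was that of library 8, with only 42692 counts in all, and the other KO libraries began at 24 CPM. The chaperone score was −0.435 ± 0.585 in KO and 0.0429 ± 1.33 in WT, without KO library 8 whose total was too low for a score. Against Alios HET, 33 genes passed (0.285%) and 0 members, with 8 members (22.9%) and 13.3% of all genes under 0.05 before adjustment, 0 by DESeq2, and 4 of 35 differences positive (median −0.28). The single Control KO library, which entered no test, had Hspa5 at 1030 CPM.

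A direct comparison of the KO effect on HFD with that on Alios was added after these values had been seen, in a fit of all 12 liver groups. The Alios mice carry a block of mouse numbers that no HFD mouse shares. Diet and block of mice therefore cannot be told apart in this comparison. No gene passed (0% of 12128 genes, 983 at an unadjusted p under 0.05), so the difference between the diets was not shown for any member. Of 35 members 32 had a larger KO minus WT difference on HFD, with a median of 0.60 against 0.011 over all genes, and 21 had an unadjusted p under 0.05. Hspa5 had the smallest adjusted p of the members, 0.134, with a log2 difference of 1.06 ± 0.25. Creld2 (1.61 ± 0.44), Syvn1, the degradation ubiquitin ligase (1.45 ± 0.39), and Dnajb9, a co-chaperone of IRE1 and BiP (1.28 ± 0.34), each had an adjusted p of 0.28. Hyou1 had 1.08 ± 0.33 (adjusted p 0.322). Without Alios KO library 8 the count stayed at 32 of 35 and the median at 0.60. With HET in place of WT, 1 gene passed (0.00825%), no member among them, and 32 of 35 differences were positive with a median of 0.60. In that 12-group fit the HFD KO minus WT comparison called 236 genes (1.95%) with Hyou1 as its only member (adjusted p 0.0444), and the Alios one called 52 genes (0.429%) with Eif2ak3 lower (−0.82, adjusted p 0.0297).

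**Figure D3:**
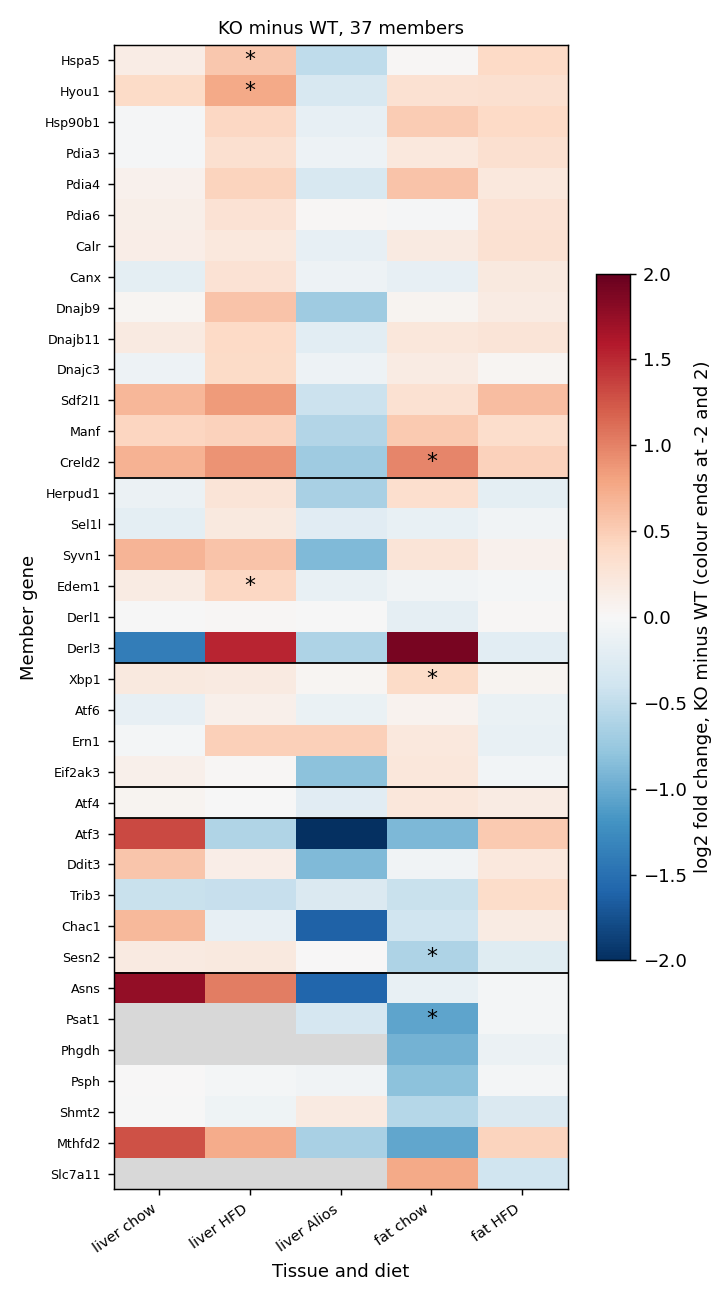
Log2 difference KO minus WT of each member (rows, ordered by role) in liver on chow, HFD and Alios and in gonadal fat on chow and HFD (columns); colour runs from −2 to 2, stars mark members called at an adjusted p under 0.05 and grey marks members not tested. In the liver HFD column all 14 chaperones are positive and 3 members carry a star, and in the liver Alios column 1 of 14 chaperones is positive with no star.

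Between diets in HET liver, Asns, Atf4 and Ern1 were lower and Sesn2 and Atf3 higher on HFD than on chow. From chow to HFD, 1574 of 11064 genes passed in HET (14.2%, with 6.97% higher and 7.26% lower), among them 5 of 34 members, a share of 14.7% like that of all genes. Of the 9 tested ATF4 targets 2 rose, 1 fell and 6 did not pass. Asns (chr6:7675169-7693254) fell 10.95-fold, from 4.03, 20.1 and 36.7 CPM on chow to 0, 0.896 and 7.51 CPM on HFD as lowest, median and highest. Of 11 HFD libraries 10 lay below every chow library. The log2 difference was −3.45 ± 0.74 (adjusted p 0.00135). Atf4 fell by 0.59 ± 0.11 (adjusted p 0.000349), from 107, 125 and 180 CPM to 62.2, 87.7 and 110 CPM, and the groups overlapped only between 107 and 110 CPM. Ern1, the IRE1 gene, fell by 0.54 ± 0.16 (adjusted p 0.0167), from 77, 107 and 168 CPM to 60, 69 and 114 CPM. Sesn2, an ATF4 target that restrains mTORC1, rose by 0.68 ± 0.17 (adjusted p 0.00511), from 4.97, 7.23 and 7.96 CPM to 7.09, 10.7 and 15 CPM. Atf3 rose by 1.37 ± 0.44 (adjusted p 0.0275), from 0.553, 1.66 and 4.76 CPM to 1.53, 2.74 and 10.7 CPM. Without the libraries that held markers of other tissues the Atf3 and Ern1 calls were lost (adjusted p 0.209 and 0.108), and the other 3 stayed. Fits without single libraries were not run for this comparison.

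For the same diets in WT liver, 207 genes passed (1.87%) and no member did, with 3 at an unadjusted p under 0.05 (8.82%, against 15.3% of all genes), 0 by DESeq2, and Atf3 nearest (log2 1.89, adjusted p 0.0959). Asns in WT stood at 7.87, 1.47, 7.67, 4.4 and 4.03 CPM on chow and ran from 0 to 19.9 CPM with a median of 1.15 on HFD. In KO, 1184 genes passed (10.7%, with 4.51% higher and 6.19% lower) and 4 of 34 members rose, 11.8%, a share near that of all genes. Sel1l rose by 0.41 ± 0.09 (adjusted p 0.00385), from 133, 145, 138, 163 and 144 CPM on chow to 160, 188 and 219 CPM, so that the groups nearly separated. Atf6 (0.46, adjusted p 0.0138), Canx, the membrane-bound lectin chaperone calnexin (0.45, adjusted p 0.0281), and Dnajc3, a co-chaperone that restrains PERK (0.49, adjusted p 0.0348), passed too. Atf6 lost its call without chow KO library 3 or 5 (adjusted p 0.0741 and 0.0728), Canx without chow KO library 2, 3 or 5 (0.0628 to 0.13), and Dnajc3 without any of these 3 or HFD KO library 2 or 3 (0.0509 to 0.147). Asns in KO stood at 22.1, 11.8, 50.2, 0.853 and 7.76 CPM on chow and ran from 0 to 40.1 CPM with a median of 1.85 on HFD. Whether the diet difference itself varied between HET and the other genotypes was not tested.

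**Figure D4:**
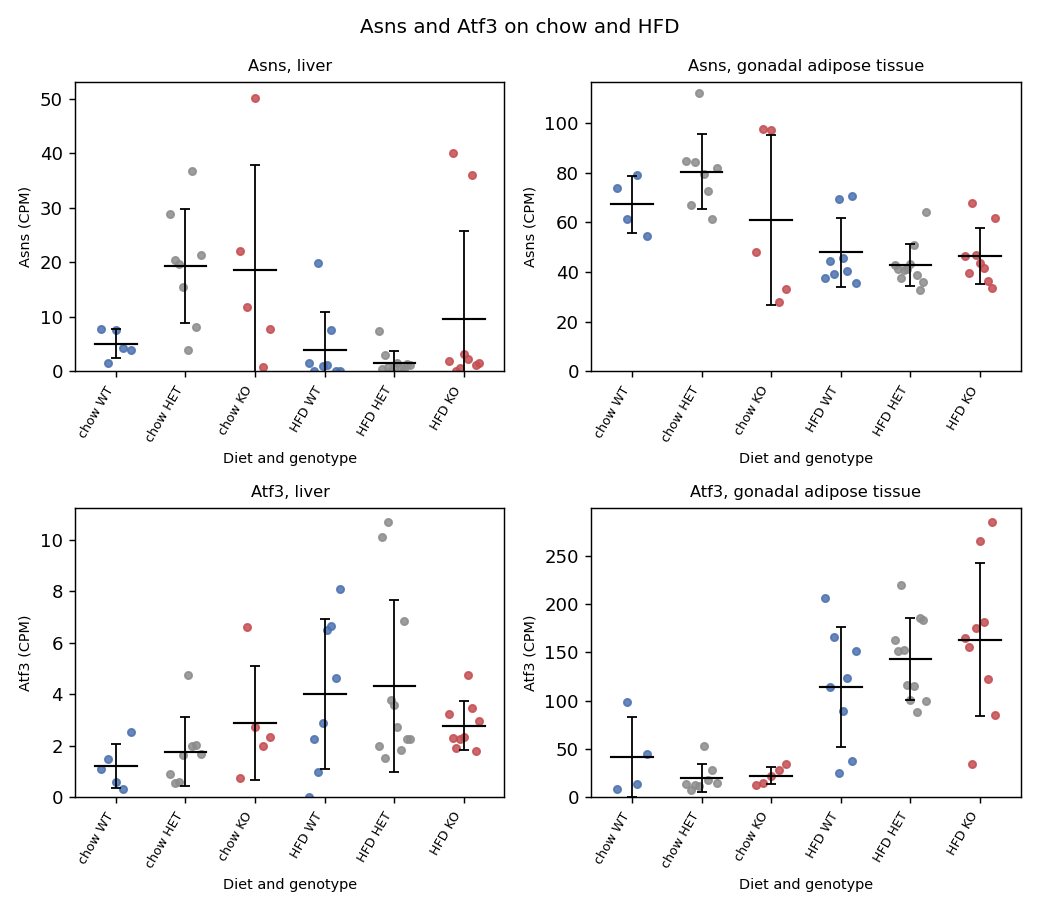
Levels of Asns and Atf3 on chow and HFD in liver and gonadal fat (y axis, CPM) for WT, HET and KO mice; points are libraries, bars are means and error bars are SD. Asns in HET liver has a median of 20.1 CPM on chow and 0.896 CPM on HFD, and Atf3 in HET fat has a median of 14.1 CPM on chow and 151 CPM on HFD with no overlap.

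From Control to Alios no member passed in either genotype tested. In WT liver no gene passed (0%), 976 genes and 2 members having an unadjusted p under 0.05. In HET liver 22 of 11595 genes passed (0.19%), none of them a member, and 14 of 14 chaperones had a positive difference with a median of 0.27. Between HET and WT no member passed in any of the 6 tissue and diet settings. Over all genes 0% passed in liver and in fat on chow, 0.00904% in liver on HFD, 0.00862% on Alios and likewise 0.00862% on Control, and 0.00688% in fat on HFD, which is 0 or 1 gene each. The members with an unadjusted p under 0.05 numbered 2 in liver on chow, 4 in liver on HFD, 0 on Alios, 0 on Control, 1 in fat on chow and 0 in fat on HFD, against 2.77% to 8.35% of all genes, and DESeq2 called 0 in all 6.

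In gonadal fat on chow, 4 of 37 members differed between KO and WT. Creld2 (chr15:88819646-88826683) was 1.97-fold higher and Xbp1 1.31-fold higher in KO, while the serine enzyme Psat1 was 2.07-fold lower and Sesn2 1.54-fold lower. Over all genes 2180 of 14536 passed (15%, with 8.85% higher and 6.14% lower), so 4 of 37 members is a share near that of all genes. Creld2 stood at 84.5, 51.4, 36.7, 150 and 127 CPM in the 5 KO libraries and at 64.7, 52.1, 38.7 and 26.7 CPM in the 4 WT libraries. KO libraries 1, 4 and 5 exceeded the highest WT library, and KO libraries 2 and 3 lay within the WT range. Xbp1 stood at 280, 325, 252, 382.9 and 428 CPM in KO and at 268, 220, 287 and 243 CPM in WT. Psat1 stood at 193, 171, 240, 48.4 and 68.6 CPM in KO and at 542, 204, 194 and 254 CPM in WT. Sesn2 stood at 49, 61.3, 67.9, 23.9 and 36 CPM in KO and at 94.8, 69.9, 59.4 and 68.9 CPM in WT. KO libraries 4 and 5 had the 2 lowest values of Psat1 and of Sesn2 and the 2 highest of Creld2 and of Xbp1. Phgdh followed the same libraries, at 77.5, 97.3, 154, 18.5 and 18.2 CPM in KO against 186, 99.8, 141 and 135 CPM in WT, and was not called.

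The log2 differences were 0.98 ± 0.32 (SE) for Creld2, 0.39 ± 0.12 for Xbp1, −1.05 ± 0.31 for Psat1 and −0.62 ± 0.21 for Sesn2, with adjusted p in the edgeR test of 0.0328, 0.0272, 0.0199 and 0.0447. All 4 calls were lost in a fit of only the compared groups (adjusted p 0.395 to 0.456), without KO library 4 (0.0937 to 0.197) and without KO library 5 (0.0824 to 0.138). Xbp1, Psat1 and Sesn2 also lost their calls without the libraries that held markers of other tissues, among them KO library 1 and WT library 2. Creld2 kept its call there. Sesn2 was lost too with no filter on low counts and with replicate numbers as blocks. Creld2 and Xbp1 were also lost without WT library 5 (0.134 and 0.0786), Psat1 and Sesn2 without WT library 2 (0.186 and 0.154), Creld2 without WT library 4 (0.0662), Xbp1 and Sesn2 without WT library 3 (0.099 and 0.0733), and Sesn2 without KO library 1 or WT library 5 (0.051 and 0.0728). Within mice numbered under 450 the Creld2 difference was −0.10, and within those above 450 it was 2.09. Of the 12 ATF4 targets 1 had a positive difference (median −0.59), and of the 14 chaperones 12 had (median 0.22). DESeq2 called 4 members.

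Summed markers of plasma cells, whose ER is built for antibody export, moved with these values. The sums stood at 11700, 4530, 3390, 33100 and 13500 CPM in the KO libraries against 2520 to 4090 CPM in WT and 1700 to 4500 CPM in HET. Among the markers Jchain, the joining chain of antibodies, stood at 536, 124, 89.2, 817 and 434 CPM in KO. Mzb1, an ER chaperone of B lineage cells, stood at 33.2, 13.7, 4.57, 135 and 40.7 CPM. The antibody gene Ighm ran from 2360 to 15200 CPM in KO and from 1710 to 2800 CPM in WT. Tnfrsf17, another marker, differed less, at 2.3, 1.32, 1.47, 3.77 and 1.41 CPM in KO against 0.656 to 2.12 CPM in WT. For it KO libraries 2, 3 and 5 lay within the WT range. Derl3, a degradation channel protein abundant in secretory cells, stood at 34, 5.62, 2.45, 42.1 and 16.7 CPM in KO and at 9.09, 4.15, 6.36 and 1.97 CPM in WT. In HET Derl3 ran from 1.5 to 23.1 CPM with a median of 2.6. The highest was HET library 2, which held epididymis markers and had Jchain at 21.2 CPM, the lowest of its group. Library 4 was the highest and library 3 the lowest KO library for both Derl3 and Mzb1. Adipocyte markers stood at 13100, 48800, 43500, 8260 and 15500 CPM in KO against 24700 to 42200 CPM in WT, and macrophage markers at 4930, 4140, 2630, 6590 and 14400 CPM against 1250 to 5440 CPM. KO libraries 4 and 5, lowest in Psat1 and Phgdh, were low in adipocyte markers, as was library 1, whose Psat1 of 193 CPM lay above that of library 2. KO library 1 also held epididymis markers. The other chow libraries with these markers had the highest Psat1 of their groups, 542 CPM in WT library 2 and 403 CPM in HET library 2. The 3 chow libraries with epididymis markers had chaperone scores of 1.67 (HET library 2), 1.98 (KO library 1) and 2.01 (WT library 2). The part of cell makeup in these differences was not tested.

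**Figure D5:**
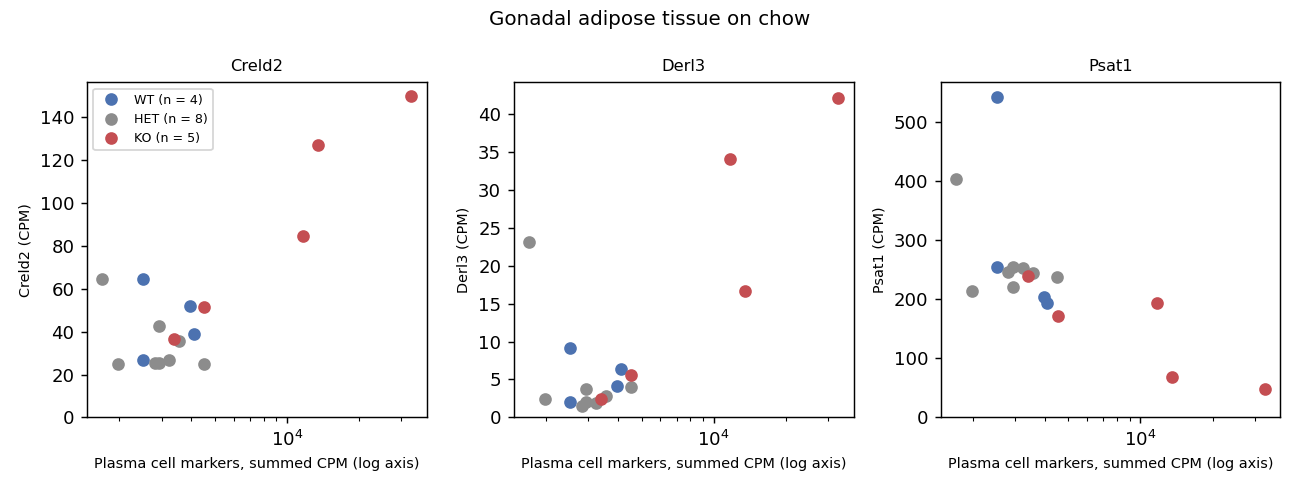
Levels of Creld2, Derl3 and Psat1 (y axis, CPM) against the summed plasma cell markers (x axis, CPM, log scale) in gonadal fat on chow; each point is a library, coloured by genotype. The KO libraries with 11700, 33100 and 13500 CPM of markers have Creld2 at 84.5, 150 and 127 CPM, and the WT libraries sit between 2520 and 4090 CPM of markers. The KO library at 11700 CPM also held epididymis markers.

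Against HET on chow, the fat of KO mice had 10 members higher and 5 lower (40.5% of 37), in a comparison where 4711 of 14536 genes passed (32.4%, with 18% higher and 14.4% lower). It shares the KO libraries with the comparison against WT. Of 14 chaperones 7 were higher, namely Creld2 (2.66-fold, log2 1.41 ± 0.26, adjusted p 0.000103), Manf (log2 0.95), Pdia4 (0.71), Hsp90b1 (0.67), Dnajb11, Sdf2l1 and Hyou1. Derl3 (1.95), Xbp1 (0.42) and Atf4 (0.34) were higher as well. Phgdh fell by 0.90, Psat1 by 0.85 and Sesn2 by 0.66 on the log2 scale, with Trib3 and Sel1l also lower. In a fit of only these groups Creld2 was the 1 of the 15 still called (adjusted p 0.0221). Without KO library 4 the calls of Atf4, Derl3, Dnajb11, Hyou1, Manf, Phgdh, Psat1, Sdf2l1, Sel1l, Sesn2 and Trib3 were lost, with adjusted p from 0.0538 to 0.19. Without KO library 1 those of Derl3, Hyou1, Pdia4, Phgdh, Sdf2l1, Sel1l and Trib3 were lost (0.0652 to 0.216), and without KO library 5 those of Dnajb11, Hyou1, Phgdh, Psat1, Sdf2l1, Sel1l and Trib3 (0.0683 to 0.359). Sel1l was also lost without KO library 2 (0.151).

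In fat on HFD no member passed between KO and WT, where 5 of 14536 genes did (0.0344%). In this comparison 5 members (13.5%) and 10.5% of all genes had an unadjusted p under 0.05, and DESeq2 called 0. Hspa5 had 676, 840 and 1450 CPM as lowest, median and highest in KO against 576, 694 and 773 CPM in WT, with 6 of 9 KO libraries above every WT library, and a log2 difference of 0.39 ± 0.21 (adjusted p 0.506). Hyou1 ran from 112 to 238 CPM in KO and from 99.4 to 155 CPM in WT. The highest WT value of both genes came from library 6, which held the hepatocyte markers given above, and the other WT libraries reached 739 CPM for Hspa5 and 128 CPM for Hyou1. All 14 chaperones had a positive difference with a median of 0.31, and the ATF4 targets had 5 of 12 positive with a median of −0.04. The chaperone score was 0.499 ± 0.814 in KO and −0.166 ± 0.423 in WT, and KO library 5 was the highest for Hspa5 (1450 CPM), Hyou1 (238 CPM) and Creld2 (96.4 CPM). By its mouse number this library came from the same mouse as KO library 2 of liver on HFD. The KO and WT libraries on HFD carry the same mouse numbers in fat and in liver, so the tissues are not independent. Plasma cell markers here ran from 1490 to 5910 CPM in KO and from 1850 to 18100 CPM in WT. Against HET, 2 genes passed (0.0138%) and no member, 4 members (10.8%) and 7.77% of all genes having an unadjusted p under 0.05, with 14 of 14 chaperones positive and a median of 0.27. The KO effect differed between HFD and chow for 920 of 14536 genes (6.33%) and for no member by edgeR or DESeq2, with 8 members (21.6%) and 23.5% of all genes at an unadjusted p under 0.05.

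In fat the largest called diet difference among the members was that of Atf3, in HET and in KO. From chow to HFD it was 7.21-fold higher in HET (log2 2.85 ± 0.43, adjusted p 1.26e-05) and 7.3-fold higher in KO (2.87 ± 0.53, adjusted p 6.66e-05). In HET the lowest, median and highest levels were 7.22, 14.1 and 52.6 CPM on chow and 87.9, 151 and 220 CPM on HFD, so all 11 HFD libraries lay above every chow library. In KO the chow libraries stood at 13, 14.9, 21.7, 27.7 and 34.7 CPM and the HFD libraries at 34, 165 and 285 CPM, 8 of 9 above every chow library. In WT the chow libraries stood at 8.18, 98.9, 14.1 and 45.1 CPM and the HFD libraries at 25.5, 118 and 206 CPM, which overlap, with a log2 difference of 1.45 (adjusted p 0.0795). Macrophage markers averaged 5040 to 6550 CPM over the HFD groups and 3020, 2220 and 6530 CPM in chow WT, HET and KO. The chow KO libraries varied widely around their mean, as given above for fat on chow. The part of macrophages in the Atf3 difference was not tested.

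Of the enzymes of amino acid synthesis Asns, Phgdh and Psph fell from chow to HFD in HET fat, and Psat1, Shmt2 and Mthfd2 did not pass. There 5002 of 14536 genes passed (34.4%, with 15.6% higher and 18.8% lower), and 8 of 37 members did, 21.6%, a smaller share than that of all genes. Asns fell by 0.92 ± 0.18 (adjusted p 0.000195), from 61.5, 80.7 and 112 CPM to 32.6, 41.2 and 64.2 CPM. Phgdh fell by 1.07, from 100.9, 134 and 176 CPM to 38.3, 59.5 and 123 CPM. Psph, the last enzyme of serine synthesis, fell by 1.05, from 26.3, 33.5 and 111 CPM to 17.3, 19.8 and 29.1 CPM. Derl1, Syvn1 and Xbp1 fell and Sel1l rose. Without the libraries that held markers of other tissues Phgdh, Xbp1 and Sel1l lost their calls (adjusted p 0.178, 0.12 and 0.0624). Fits without single libraries were not run for this comparison in HET. In WT, 665 genes passed (4.57%, with 1.6% higher and 2.97% lower), with Sel1l higher (0.32, adjusted p 0.0311) and Psph lower (−1.22, adjusted p 0.0252). Psph in WT stood at 119, 27.8, 30.2 and 33.6 CPM on chow and at 18.1, 20.9 and 36.5 CPM on HFD, and without chow WT library 2, which held epididymis markers, its difference was −0.43 (adjusted p 0.391). Psph was also lost without HFD WT library 1 or 3 (0.055 and 0.0515), and Sel1l without HFD WT library 1 or 3 or chow WT library 2 or 4 (0.0566 to 0.181).

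In KO fat 5167 genes passed from chow to HFD (35.5%, with 15% higher and 20.6% lower), and 12 of 37 members did, 32.4%, a share near that of all genes. Sel1l (0.41), Trib3 (0.72), Edem1 and Chac1, which degrades glutathione, rose with Atf3. Xbp1 (−0.54), Syvn1 (−0.44), Derl3 (5.48-fold lower), Creld2 (−0.79), Herpud1, Pdia4 and Slc7a11 fell. The chow side of this comparison is the 5 KO libraries with the plasma cell and epididymis markers given above. Creld2 lost its call without chow KO library 4 or 5 (adjusted p 0.132 and 0.0698), Herpud1 without 1, 4 or 5 (0.0572 to 0.117), Pdia4 without 1 or 5 (0.118 and 0.0557), Trib3 without 1, 4 or 5 (0.0519 to 0.0746) and Edem1 without 1 or 2 (0.0612 and 0.0907). Chac1 lost it without chow KO library 2, 4 or 5 or HFD KO library 1, 2, 4, 5 or 7 (0.052 to 0.216). Slc7a11 stood at 71, 0.496, 1.8, 2.94 and 3.53 CPM on chow, and without KO library 1 its difference changed sign to 0.04 (adjusted p 0.979). The other 2 chow libraries with epididymis markers had Slc7a11 at 30.7 CPM (HET library 2) and 33.5 CPM (WT library 2), against 0.496 to 3.53 CPM in the other 14 chow libraries.

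Genes of the same pathways outside the 37 were counted from lists of their own. In liver on HFD, of 35 other unfolded protein response genes 0 passed between KO and WT, with 30 positive and a median of 0.21, and 4 rose against HET, among them Edem2 (0.39, adjusted p 0.014), Derl2 (0.36, adjusted p 0.0181) and Pdia5 (0.57, adjusted p 0.0351). Of all genes 1.72% passed against WT and 2.39% against HET. Of the other integrated stress response genes Slc38a2, an amino acid carrier, rose against WT (0.55, adjusted p 0.0283), while 0 of 12 tRNA synthetases and 0 of 7 mitochondrial chaperones and proteases passed. Among cytosolic heat shock genes Hsph1 rose against WT (0.94 ± 0.19, adjusted p 0.00801) and against HET (0.80, adjusted p 0.00678). In HET liver Fgf21, a stress hormone, was 11.99-fold higher on HFD than on chow (adjusted p 0.000239), and Cth, which makes cysteine, fell by 1.27 (adjusted p 0.000119). In chow fat, of 35 other unfolded protein response genes 3 rose and 2 fell between KO and WT, a share near the 15% of all genes that passed. Ero1lb, an ER oxidase of secretory cells, had 1.17 (adjusted p 0.0114). From chow to HFD, Wfs1, an ER membrane protein, rose in fat of KO (1.70, adjusted p 3.04e-05) and HET mice (1.45). In KO fat 8 of 12 tRNA synthetases rose, with Nars at 0.47 (adjusted p 2.87e-06), where 35.5% of all genes passed in either direction.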

How the data were processed

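RNA was extracted with miRNeasy (RNA integrity number above 7), made into TruSeq Stranded mRNA libraries and sequenced as 50-base single reads on an Illumina HiSeq, per the labels' protocols. The authors deposited whole-number read counts per gene, made with STAR 2.5.1b and featureCounts 1.5 on GRCm38.p5 per the submitters' processing notes. The annotation release and strand setting were, however, not given in the sources used here, so reads of overlapping genes on opposite strands could not be told apart. Each table held 25759 genes, of which 25723 matched a symbol of the GENCODE M21 annotation on GRCm38. Of 121 labelled samples 120 had a column. Sample 1 of gonadal chow WT was not analysed here. Another gonadal column (1 in all) matched no label and stayed unused. Of 392 pairs of libraries within groups none agreed within sampling noise.

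Counts were tested with edgeR 4.0.16 (R 4.3.3) in 3 quasi-likelihood fits, of gonadal fat, of the livers on Control or Alios, and of the livers on chow or HFD. Each used TMM scaling, filterByExpr with a minimum count of 10 and a minimum total of 15, and Benjamini-Hochberg adjustment over 14536, 11595 and 11064 genes respectively. All groups of a fit shared its estimate of the spread. The 26 comparisons were two-sided with a threshold of 0.05 on the adjusted p, and SE is the log2 difference over the square root of F. CPM use the TMM scaling of their own fit, and z-scores were taken within each fit, leaving out libraries under 100000 counts. DESeq2 1.42.0, RLE scaling, other filters, a fit of only the compared groups, a replicate block, the run of mouse numbers, and fits without single libraries were alternatives. The code was tested on simulated data. The p-values measure the spread between libraries, and counting error is included in them.

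All 37 members were eligible to be named, with full values for those called between KO and WT or in most diet comparisons, and up to 3 called genes with the smallest adjusted p from each other list and comparison. The members and lists were chosen with earlier results of these data known.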

Additional observations from a re-analysis of the deposited data

Results flagged for a closer look

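In 28 of 165 groups of 4 to 10 libraries tested, the highest or lowest library lay further from the others than Dixon's 95% limit. Chance flags about 1 in 20 groups. Values are CPM unless a score is named, and no cause was tested.

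In liver on HFD, KO library 2 stood above its group for Hspa5 (1490), Creld2 (115), Xbp1 (532) and the chaperone score (2.75), and WT library 3 for Asns (19.9). In liver on chow, HET library 6 stood apart for Hyou1 (215) and HET library 5 for Atf3 (4.76). On Alios, KO library 4 stood apart for Hyou1 (253), KO library 8 for Edem1 (149), KO library 2 for Atf3 (7.58) and WT library 5 for Asns (26.7). Alios KO library 8 held 42692 counts in all, the lowest liver total, so its value rests on few reads. On Control, WT library 3 stood apart for Atf3 (24.9), Psat1 (10.5) and the ATF4 target score (1.48), and its summed pancreas markers were 340.8 CPM.

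In gonadal fat on chow, HET library 2 stood apart for Hspa5 (1440), Hyou1 (212), Creld2 (64.4), Psat1 (403), the chaperone score (1.67) and the ATF4 target score (0.989), and WT library 2 for Hyou1 (208) and the ATF4 target score (1.31). Both held epididymis markers, at 13700 and 15700 CPM. HET library 4 stood apart for Xbp1 (360) and Asns (112), and HET library 5 for Atf3 (52.6). On HFD, KO library 5 stood apart for Creld2 (96.4), KO library 8 for Edem1 (170) and WT library 2 for Creld2 (60.5), the last with plasma cell markers of 18100 CPM. By mouse number, KO library 5 of fat and KO library 2 of liver on HFD came from the same mouse.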

How the results depend on the processing

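Of 222 counts of called members under alternatives 201 stayed within 1.5 times the reported count and 21 moved, and of 983 values of the 59 calls (a member in a comparison) 783 kept their call, 198 lost it and 2 changed sign. The causes were not tested except where fewer samples entered. With DESeq2 the calls numbered 6 for liver HFD KO against WT (3 reported), 8 for KO against HET (4), 1 for Alios KO against WT (0) and 4 for gonadal WT HFD against chow (2). In a fit of only the compared groups they were 1 for liver HFD KO against WT, 0 for liver chow KO against HET (2 reported), 0 for gonadal chow KO against WT (4), 1 for gonadal chow KO against HET (15), 0 for gonadal WT between diets and 13 for gonadal HET between diets (8). Without a filter on low counts liver HFD KO against HET had 1. With the replicate block it also had 1, liver KO between diets had 2 (4 reported) and gonadal WT between diets 0. Same-numbered libraries did not deviate together in every pair of any comparison, so the numbers were not taken to pair mice. Without libraries holding other tissue the calls numbered 0 for liver chow KO against HET, 3 for liver HET between diets (5 reported), 2 for liver KO between diets, 2 for Alios KO against HET (0), 1 for gonadal chow KO against WT and 0 for gonadal WT between diets. Without the mouse labelled HET, liver chow KO against HET had 1. Slc7a11 in KO fat between diets changed sign without libraries holding other tissue (0.098) and without chow KO library 1 (0.04), the lowest value over single libraries being −3.14.

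Leaving out single libraries gave 0 to 5 called members for liver HFD KO against WT, 0 to 7 for KO against HET, 0 to 1 for chow KO against WT, 0 to 5 for chow KO against HET, 0 to 2 for WT and 1 to 5 for KO between diets, 0 to 2 for the difference of KO effects and 0 to 1 for Alios KO against WT. In fat it gave 0 to 9 for chow KO against WT, 4 to 21 for KO against HET, 0 to 6 for WT and 8 to 16 for KO between diets, and 0 to 3 for the difference of KO effects. On chow and HFD no HET library was left out in these fits. Against HET on these diets only KO libraries were left out, and HET between diets had no such fit. Of the 59 calls 58 kept their direction within each run of mouse numbers, Creld2 in chow fat being the exception. Members under about 1 CPM on average, such as Slc7a11 and Phgdh in liver and Psat1 in liver on chow, were limited by depth.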
